A study of Homo sapiens with 6 samples.

Results

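The MYC, MAX and MXD network is a set of transcription factors that bind DNA in pairs, each pair held together by a helix-loop-helix and a leucine zipper. It was taken here as 10 genes, found by symbol in the count matrix. They are the MYC family (MYC, MYCN and MYCL), the shared partners MAX and MLX, and the antagonists MXD1, MXD3, MXD4, MXI1 and MNT. They made up 10 of the 35322 gene symbols counted. All 10 passed the filter on low counts, as did 16510 genes in all, and MYCN passed it only through the control libraries, where it was highest.

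MYC, MYCN and MYCL bind DNA as pairs with MAX, at the E-box CACGTG and related sites, and recruit coactivators that raise transcription. The MXD proteins, MXI1 and MNT also pair with MAX, bind the same sites and bring in the SIN3 corepressor and its histone deacetylases, so that the antagonists and the MYC family compete for MAX and for E-boxes. MLX is a second shared partner. It pairs with some of the antagonists and with the glucose sensors MLXIP (MondoA) and MLXIPL (ChREBP). In prostate carcinoma, MYC is known as a gene often gained or overexpressed.

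RNA of 22Rv1, an established human prostate carcinoma cell line, was sequenced in 6 libraries, with 2 in each of 3 groups. The control libraries came from cells that the labels give as wild type, whereas the paper that reported the data speaks of stable lines with control shRNAs or shRNAs to ZMYND11, made with a lentiviral vector. The ZM11-kd1 and ZM11-kd2 libraries came from cells with a knockdown of ZMYND11, a chromatin reader protein, and the labels name no other treatment. By the methods of the study, cells infected for a knockdown were selected and then kept in puromycin, so that wild-type controls would differ from them in puromycin as well. All cells were grown in RPMI1640 medium with fetal bovine serum. Which description holds for the control libraries, and which shRNA each knockdown carried, was not settled here. The sources used here do not say whether the libraries of a group were separate cultures, so p-values measure only the spread between these libraries, which may be technical.

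The E-box is the site that the network itself binds, so the 250 bases before the RefSeq starts of the members were searched for it, on either strand. A match is a description of the letters and not evidence of binding. RefSeq promoters (GRCh38.p14) were matched for 9 members with 12 start sites, and MYC was not searched. The letters CACGTG stood before the starts of MXD4, MNT and MLX, which is 3 of the 12 start sites, while 6.34% of all 35116 promoters of this length held them. An E2F-type site, spelled TTTCCCGC, TTTCGCGC, TTTGCCGC or TTTGGCGC, was found only before MYCN, as a pair of overlapping matches on opposite strands. Of all promoters, 2.79% held such a site. The windows with a match are given in the direction of transcription, with the matches in capitals, and each ends before the first annotated base of its gene. They are MYCN at chr2:15940300-15940549 on the plus strand, MXD4 at chr4:2262110-2262359 on the minus strand, MNT at chr17:2401105-2401310 on the minus strand, and MLX at chr17:42566850-42567071 on the plus strand.
MYCN: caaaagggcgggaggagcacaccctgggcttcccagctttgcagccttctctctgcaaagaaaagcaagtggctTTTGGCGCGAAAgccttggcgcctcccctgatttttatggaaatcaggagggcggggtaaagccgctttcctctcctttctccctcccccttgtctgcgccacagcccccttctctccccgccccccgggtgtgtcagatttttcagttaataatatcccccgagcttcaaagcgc
MXD4: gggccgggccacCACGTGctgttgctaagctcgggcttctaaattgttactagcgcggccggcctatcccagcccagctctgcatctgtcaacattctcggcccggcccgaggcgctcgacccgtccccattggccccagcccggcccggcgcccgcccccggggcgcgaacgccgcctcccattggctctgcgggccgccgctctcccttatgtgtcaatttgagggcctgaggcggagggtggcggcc
MNT: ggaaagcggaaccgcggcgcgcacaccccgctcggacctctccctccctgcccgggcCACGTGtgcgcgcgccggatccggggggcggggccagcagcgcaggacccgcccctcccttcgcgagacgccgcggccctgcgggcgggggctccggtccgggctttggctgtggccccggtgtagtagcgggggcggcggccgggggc
MLX: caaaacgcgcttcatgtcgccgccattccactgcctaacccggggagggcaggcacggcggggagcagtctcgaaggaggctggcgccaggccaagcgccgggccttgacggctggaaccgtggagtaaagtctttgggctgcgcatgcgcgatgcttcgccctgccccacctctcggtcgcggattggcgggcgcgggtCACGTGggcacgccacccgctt
Counted back from the RefSeq start, the E-box of MLX covered bases 50 to 45, that of MNT bases 193 to 188, and that of MXD4 bases 238 to 233. The pair of E2F-type matches before MYCN covered bases 176 to 165.

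The libraries held 26844128 to 38193748 counts, and 1 count corresponded to at most 0.0338 CPM, the count of a gene scaled by TMM to a library of standard size. ZMYND11 itself had 4283 and 4179 counts in control, 941 and 773 in ZM11-kd1, and 770 and 779 in ZM11-kd2, so that each knockdown library lay below both controls. Of the 11 luminal prostate markers listed, 11 had over 10 counts in each library, and their summed level was 3317 to 3341 CPM in control, 4291 to 4320 in ZM11-kd1 and 4776 to 4786 in ZM11-kd2. The 4 basal markers summed to at most 1.28 CPM in control, 5.78 in ZM11-kd1 and 1.84 in ZM11-kd2. The 7 fibroblast markers summed to 33.1 to 36.2, 86.6 to 87.2 and 44.4 to 44.7 CPM, most of it COL1A1 (23.8 to 23.9, 74.2 to 74.8 and 30.1 to 32.4 CPM). COL3A1 was lower in both knockdowns and DCN in ZM11-kd2. COL1A2 was higher in both knockdowns, from 2 and 1 counts in control to 23 and 18 in each, and LUM was higher in ZM11-kd2 (log2 fold change 0.68). FAP had 2 and 2 counts in control and 0 in both knockdowns. Blood and immune markers summed to at most 4.06 CPM in any library, with CD3E at 0 in all, and endothelial markers to at most 0.196 CPM, with KDR at 0 in all. The part of these differences in the results below was not tested.

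The first question was how RNA of each member stood after loss of ZMYND11. MYC, MYCN and MYCL were all lower in both knockdowns, and MAX was higher in both. The antagonists moved in different directions, with MXI1 and MNT higher and MXD3 lower in both knockdowns. Among the members, 8 of 10 were called in ZM11-kd1 against control, with 3 higher and 5 lower. A call is an adjusted p under 0.05 with edgeR, adjusted over all genes tested. Of all genes tested, 78.0% were called in this comparison, 38.2% higher and 39.8% lower. In ZM11-kd2 against control, 9 of 10 members were called, with 5 higher and 4 lower, beside 73.4% of all genes, 36.5% higher and 36.9% lower. Without MYCN the called members were 7 of 9, with 3 higher and 4 lower, and 8 of 9, with 5 higher and 3 lower. The number of called members was thus near that of genes in general, and it is the directions and sizes by role that are described here. Both comparisons use the same control libraries.

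With a fold change of at least 1.5 also asked for, 6 members were called in ZM11-kd1, 1 higher and 5 lower, beside 59.7% of all genes, 28.6% higher and 31.2% lower. In ZM11-kd2 there were 7, with 3 higher and 4 lower, beside 51.1%, 23.8% higher and 27.3% lower. Without MYCN, 5 were called in ZM11-kd1, with 4 lower, and 6 in ZM11-kd2, with 3 lower. The libraries of the 2 groups did not overlap for 9 members in ZM11-kd1, where 89.7% of all genes did not overlap, and for 10 members in ZM11-kd2, where the share was 86.3%. Without MYCN these were 8 and 9 members. The direction of small changes turned with the scaling. With library totals alone in place of TMM, the median log2 fold change of all genes shifted by -0.355 in ZM11-kd1 and by -0.17 in ZM11-kd2. In ZM11-kd1 that scaling split all calls into 4596 higher and 8420 lower, in place of 6310 and 6572, and in ZM11-kd2 into 4967 higher and 7220 lower, in place of 6031 and 6087. That scaling split the ZM11-kd1 calls of the members into 1 higher and 7 lower, MYCN included. Fold changes also went with the length and GC content of genes. Both were taken from the longest transcript of each gene. Over 15950 genes, the Spearman correlation of the log2 fold change was -0.315 with that length and 0.189 with GC content in ZM11-kd1. In ZM11-kd2 it was -0.129 and -0.03. For ZM11-kd2 against ZM11-kd1 it was 0.285 and -0.295. These are descriptions across genes of the same 6 libraries, and their part in the results was not tested beyond refitting with a lowess correction for both, called the length and GC correction here.

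**Figure D1:**
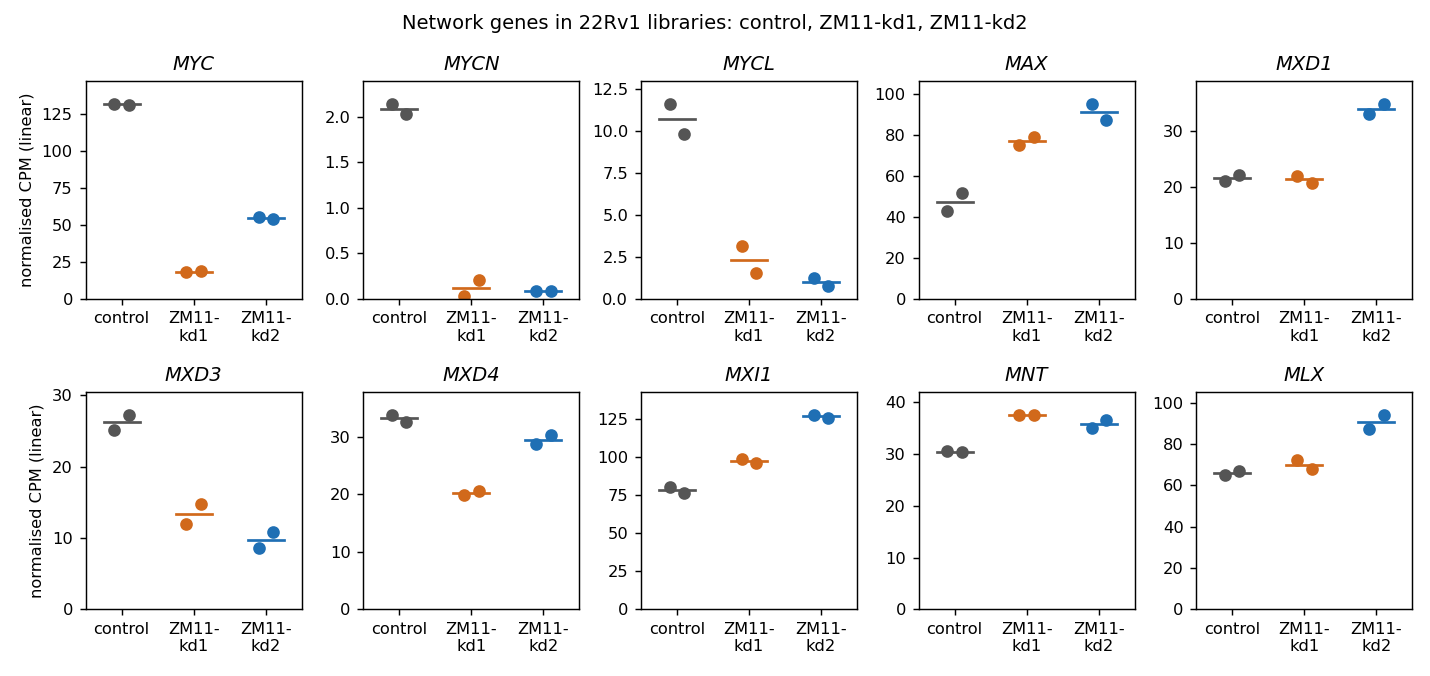
Normalised CPM (linear axis from 0) of the 10 network genes, 1 panel a gene, with 1 point a library and a bar at the mean of the 2 libraries of control, ZM11-kd1 and ZM11-kd2. MYC stood at 131.7 and 131.6 CPM in control, 17.8 and 18.6 in ZM11-kd1, and 55.4 and 54.3 in ZM11-kd2, while MAX and MXI1 were higher in all 4 knockdown libraries than in both controls.

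MYC, the most abundant member per length in control cells and a driver of growth and ribosome production, fell in both knockdowns. The gene spans 127735434 to 127742951 of chromosome 8, plus strand (GRCh38, GENCODE 44). Control libraries held 4008 and 4086 MYC counts, against 605 and 551 in ZM11-kd1, and 1979 and 1859 in ZM11-kd2. The 3 groups did not overlap, and in no group did the libraries differ by more than a small part of the gap to the next group. Scaled by TMM, MYC stood at 131.6 ± 0.103 CPM (SD, n = 2) in control, 18.2 ± 0.568 CPM (SD, n = 2) in ZM11-kd1 and 54.8 ± 0.793 CPM (SD, n = 2) in ZM11-kd2. Against control this was a log2 fold change of -2.85 in ZM11-kd1 (standard error 0.06, adjusted p = 6.98e-14, edgeR), a 7.23-fold lower level. In ZM11-kd2 it was -1.26 (standard error 0.06, adjusted p = 9.97e-11, edgeR), or 2.40-fold lower. Of all genes tested, 93.1% had a smaller change than MYC in ZM11-kd1, and 75.1% in ZM11-kd2. In bulk RNA, fewer cells with a transcript and less of it per cell cannot be told apart.

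MYCN, the family member best known from the nervous system and from neuroendocrine tumours, was near the detection limit in all knockdown libraries. The gene (chromosome 2, 15940550 to 15947007, plus strand) had 65 and 63 counts in control, 1 and 6 in ZM11-kd1, and 3 and 3 in ZM11-kd2. All knockdown libraries lay below both controls. Summed over the libraries of a group, 128 control counts stood against 7 in ZM11-kd1, which is 18.9-fold fewer after scaling (95% interval 8.92 to 48.0). Against the 6 counts in ZM11-kd2 it was 24.3-fold fewer (95% interval 10.9 to 67.4). These exact binomial intervals cover counting error only and are no test of the fall. With so few counts the size of the fall in ZM11-kd1 rested on single libraries, as the fitted log2 fold change of -4.19 became -3.33 without ZM11-kd1 replicate 1 and -5.97 without ZM11-kd1 replicate 2. As MYCN passed the filter through the control libraries alone, no p is given for its fall.
MYCNOS, an antisense RNA that overlaps MYCN by 98 bases of exon, had 10 and 6 counts in control and 0 in each knockdown library.

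MYCL, a family member first found in lung tumours, fell further in ZM11-kd2 than in ZM11-kd1. The counts of this gene (chromosome 1, 39895428 to 39902256, minus strand) were 353 and 305 in control, 106 and 46 in ZM11-kd1, and 44 and 25 in ZM11-kd2. No control library was as low as any knockdown library, although the libraries of each knockdown differed from each other by over 1.5-fold. Its log2 fold changes were -2.17 in ZM11-kd1 (standard error 0.25, adjusted p = 1.48e-06, edgeR), and -3.44 for ZM11-kd2 (standard error 0.28, adjusted p = 5.09e-08, edgeR). The ZM11-kd1 value was -2.78 without ZM11-kd1 replicate 1, the library with 106 counts. In counts summed by group, this was 4.48-fold fewer in ZM11-kd1 (95% interval 3.75 to 5.38) and 10.9-fold fewer in ZM11-kd2 (95% interval 8.46 to 14.1), with counting error alone in the intervals. Of all genes, 96.8% had a smaller change than MYCL in ZM11-kd2.

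MAX, the obligate partner of the MYC family and a partner of the antagonists, moved against MYC. The gene (chromosome 14, 65006174 to 65102695, minus strand) had 1312 and 1606 counts in control, 2551 and 2345 in ZM11-kd1, and 3397 and 2989 in ZM11-kd2. The groups were again separate, with ZM11-kd2 highest. Scaled, MAX was at 47.4 ± 6.08 CPM (SD, n = 2) in control, 77.2 ± 2.91 CPM (SD, n = 2) in ZM11-kd1 and 91.2 ± 5.53 CPM (SD, n = 2) in ZM11-kd2. The rise was 1.63-fold in ZM11-kd1 (log2 fold change 0.70, standard error 0.08, adjusted p = 1.53e-06, edgeR). It was 1.92-fold in ZM11-kd2 (log2 fold change 0.94, standard error 0.08, adjusted p = 7.54e-08, edgeR). In ZM11-kd1, scaling by library totals alone gave 0.35, still a call. MAX shares 822 bases of exon with FNTB on the opposite strand. FNTB had at most 366 counts in a library, and how reads of the shared bases were assigned is not known. It was higher in ZM11-kd1 (log2 fold change 0.91) and had a log2 fold change of -0.20 in ZM11-kd2 (adjusted p = 0.235, edgeR).

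MLX, the partner of the glucose sensors, rose in ZM11-kd2 and was not called in ZM11-kd1. MLX (chromosome 17, 42567072 to 42573239, plus strand) had 1972 and 2072 counts in control, 2450 and 2014 in ZM11-kd1, and 3115 and 3220 in ZM11-kd2. In CPM the ZM11-kd2 libraries, at 87.2 and 94.0, were above the other 4, which were between 64.8 and 72.1. The log2 fold change was 0.46 in ZM11-kd2 (standard error 0.06, adjusted p = 9.64e-06, edgeR) and 0.09 in ZM11-kd1 (standard error 0.06, adjusted p = 0.192, edgeR). In ZM11-kd1 the sign turned to -0.26 with library totals alone (adjusted p = 0.0024, edgeR) and to -0.13 after the length and GC correction (adjusted p = 0.0631, edgeR). MLX and PSMC3IP, on opposite strands, share 775 bases of exon. PSMC3IP was lower in both knockdowns, by log2 fold changes of -2.58 and -0.91.

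Of the antagonists, MXI1 had the highest level in each group and MXD3 the largest change. MXI1 (chromosome 10, 110207605 to 110287365, plus strand) represses transcription in pair with MAX. Its counts were 2439 and 2379 in control, 3350 and 2851 in ZM11-kd1, and 4553 and 4307 in ZM11-kd2. In CPM these were 80.2 and 76.6, then 98.6 and 96.3, then 127.4 and 125.7, so the 3 groups were separate. MXI1 rose by a log2 fold change of 0.69 in ZM11-kd2 (standard error 0.05, adjusted p = 3.49e-08, edgeR). It was 0.31 in ZM11-kd1 (standard error 0.06, adjusted p = 0.000112, edgeR), but -0.04 there with library totals alone (adjusted p = 0.53, edgeR).

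MXD3, an antagonist known for expression in dividing cells, fell in both knockdowns. Its counts (chromosome 5, 177301461 to 177312757, minus strand) were 766 and 846 in control, 409 and 438 in ZM11-kd1, and 307 and 373 in ZM11-kd2. The CPM of 25.2 and 27.2 in control compared with 12.0 and 14.8 in ZM11-kd1 and 8.59 and 10.9 in ZM11-kd2, again without overlap. MXD3 had a log2 fold change of -0.97 in ZM11-kd1 (standard error 0.12, adjusted p = 4.44e-06, edgeR), and -1.43 for ZM11-kd2 (standard error 0.13, adjusted p = 1.14e-07, edgeR). The ZM11-kd1 value was -1.66 after the length and GC correction. The exons of MXD3 overlap those of RAB24 on the same strand by 926 bases and those of PRELID1 on the other strand by 1148 bases. RAB24 had 168 to 445 counts and PRELID1 1327 to 2416. Each of their log2 fold changes was above 0, at 1.15 and 0.21 for RAB24 (adjusted p = 0.169 for the latter, edgeR) and 0.50 in both knockdowns for PRELID1. How reads in such overlaps were assigned is not given in the sources used here, so the size of the MXD3 change is uncertain.

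MXD4, an antagonist known from differentiating cells, was lower in ZM11-kd1 and not called in ZM11-kd2. MXD4 (chromosome 4, 2247432 to 2262109, minus strand) had 1027 and 1012 counts in control, 674 and 609 in ZM11-kd1, and 1025 and 1037 in ZM11-kd2. Scaled, the CPM were 33.8 and 32.6 in control, 19.8 and 20.6 in ZM11-kd1, and 28.7 and 30.3 in ZM11-kd2, so the ZM11-kd2 libraries lay between the other groups. The log2 fold change was -0.72 in ZM11-kd1 (standard error 0.08, adjusted p = 9.46e-07, edgeR), and -0.17 for ZM11-kd2 (standard error 0.08, adjusted p = 0.0571, edgeR). The ZM11-kd2 value turned on the scaling, since it was a call with library totals alone (-0.34, adjusted p = 0.00138, edgeR). It was also a call with at least 10 counts asked of every library (-0.21, adjusted p = 0.0216, edgeR) and without ZM11-kd2 replicate 2 (-0.20, adjusted p = 0.0374, edgeR).

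MXD1, the antagonist first described as MAD and known from differentiating blood and skin cells, was higher in ZM11-kd2. The gene (chromosome 2, 69897688 to 69942945, plus strand) had 641 and 686 counts in control, 747 and 611 in ZM11-kd1, and 1179 and 1189 in ZM11-kd2. In CPM the control libraries (21.1 and 22.1) and the ZM11-kd1 libraries (22.0 and 20.6) overlapped, and both ZM11-kd2 libraries (33.0 and 34.7) were above them. The log2 fold change was 0.65 in ZM11-kd2 (standard error 0.08, adjusted p = 4.29e-06, edgeR). In ZM11-kd1 it was -0.02 (standard error 0.08, adjusted p = 0.861, edgeR). There the processing set the answer, with -0.37 from library totals alone (adjusted p = 0.00132, edgeR) and 0.45 after the length and GC correction (adjusted p = 5.48e-05, edgeR). SNRNP27, which shares 237 bases of exon with MXD1 on the same strand, was higher in both knockdowns, by log2 fold changes of 1.44 and 1.26.

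MNT, a widely expressed antagonist that pairs with MAX or MLX, had the smallest called changes. MNT (chromosome 17, 2384073 to 2401104, minus strand) had 931 and 945 counts in control, 1274 and 1112 in ZM11-kd1, and 1254 and 1256 in ZM11-kd2. In CPM these were 30.6 and 30.4, then 37.5 and 37.6, then 35.1 and 36.7. The log2 fold change was 0.30 in ZM11-kd1 (standard error 0.07, adjusted p = 0.00141, edgeR), and 0.23 for ZM11-kd2 (standard error 0.07, adjusted p = 0.00808, edgeR). Neither held with library totals alone, which gave -0.06 (adjusted p = 0.506, edgeR) and 0.06 (adjusted p = 0.455, edgeR). In ZM11-kd2 the call was also lost without control replicate 1 (adjusted p = 0.0506, edgeR) or without control replicate 2 (adjusted p = 0.0555, edgeR). In ZM11-kd1 it was lost after the length and GC correction (log2 fold change 0.14, adjusted p = 0.0709, edgeR).

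**Figure D2:**
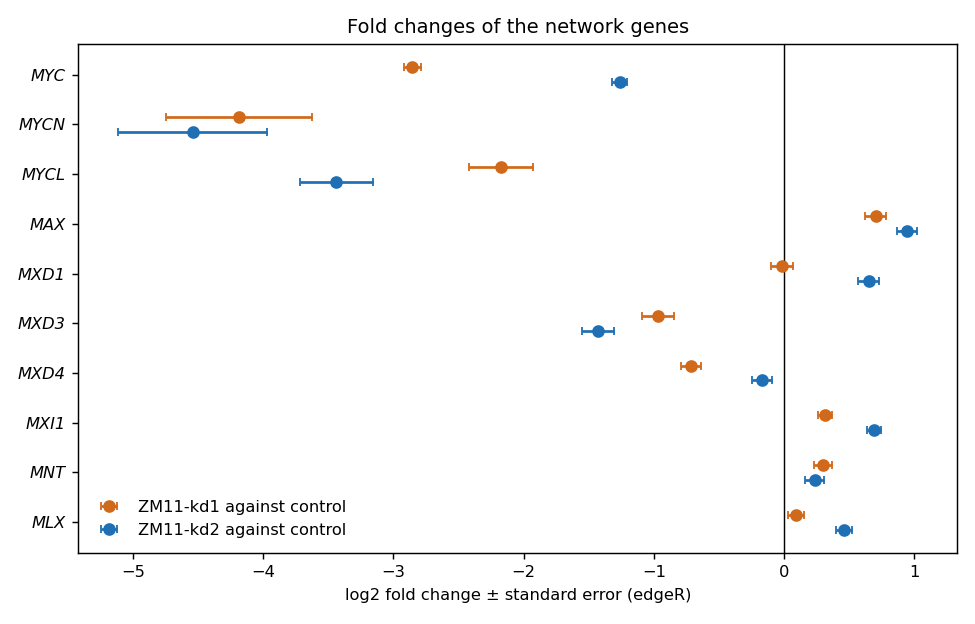
Log2 fold changes of the 10 network genes in ZM11-kd1 and ZM11-kd2 against control (x axis), as points with bars of 1 standard error from edgeR. MYC, MYCN, MYCL and MXD3 lie left of 0 in both comparisons, at -2.85, -4.19, -2.17 and -0.97 in ZM11-kd1, and MAX, MXI1 and MNT lie right of it in both.

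**Figure D3:**
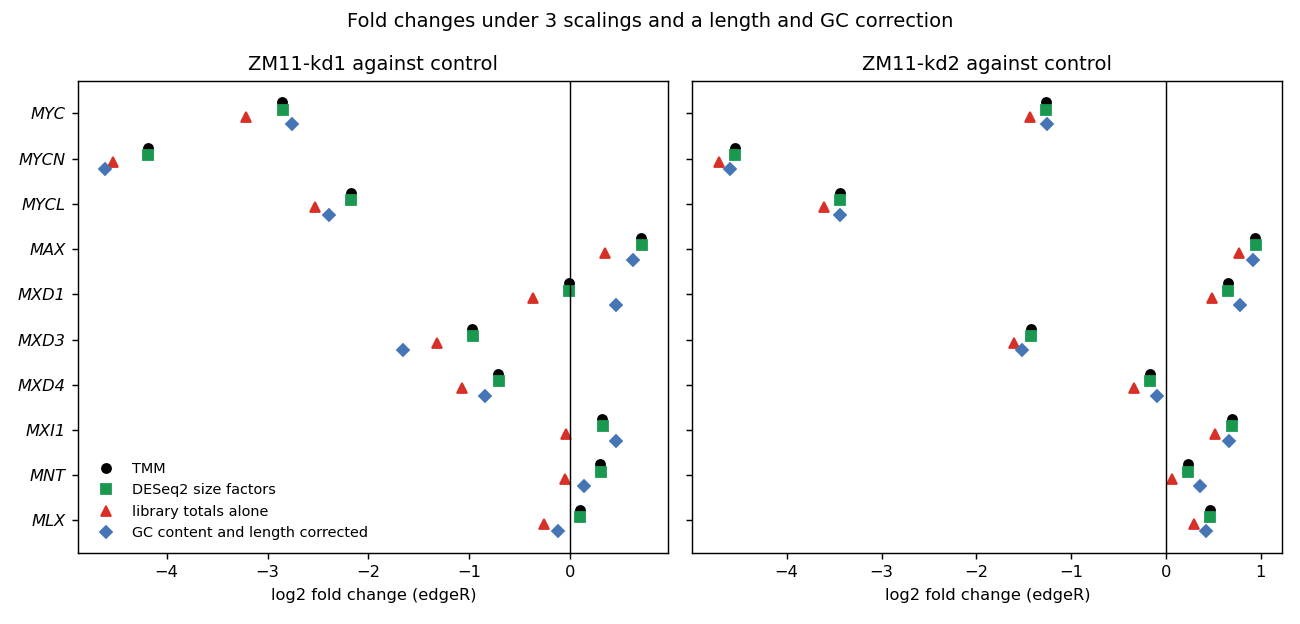
Log2 fold changes of the same genes against control (x axis) under 3 scalings and the length and GC correction, with ZM11-kd1 in the left panel and ZM11-kd2 in the right. The markers of MYC, MYCN, MYCL, MXD3 and MXD4 stay left of 0 and those of MAX right of it under all 4, while MXD1, MXI1, MNT and MLX change side in ZM11-kd1.

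The second question was where the knockdowns differed from each other. In ZM11-kd2 against ZM11-kd1, 8 of 10 members were called, 6 higher and 2 lower in ZM11-kd2, beside 68.8% of all genes, 34.9% higher and 33.8% lower. With a fold change of at least 1.5, 3 members were called, 2 higher and 1 lower, beside 44.8%, 21.9% higher and 22.8% lower. The libraries of the 2 knockdowns did not overlap for 9 members, and for 83.1% of all genes. With library totals alone all calls of this comparison split into 7065 higher and 4506 lower, in place of 5767 and 5588, and those of the members into 6 higher and 1 lower.
MYC was 3.01-fold higher in ZM11-kd2 than in ZM11-kd1 (log2 fold change 1.59, standard error 0.06, adjusted p = 6.28e-11, edgeR), while ZMYND11 itself was lower in ZM11-kd2 (log2 fold change -0.28, adjusted p = 0.00265, edgeR). That difference in ZMYND11 was -0.10 with library totals alone (adjusted p = 0.259, edgeR). MYCL went the other way from MYC (log2 fold change -1.26, standard error 0.33, adjusted p = 0.00369, edgeR). It was -0.65 and no longer called without ZM11-kd1 replicate 1 (adjusted p = 0.121, edgeR), the library with 106 MYCL counts.
MXD1 (0.67), MXD4 (0.55), MXI1 (0.38) and MLX (0.37) were higher in ZM11-kd2 by the log2 fold changes given, with adjusted p-values of at most 9.13e-05 (edgeR). MAX was higher by 0.24 (adjusted p = 0.013, edgeR), a call lost without ZM11-kd1 replicate 1 (adjusted p = 0.107, edgeR). MXD3 was lower (log2 fold change -0.46, adjusted p = 0.00655, edgeR). The MXD3 call was lost with library totals alone (-0.27, adjusted p = 0.081, edgeR) and without ZM11-kd1 replicate 2 (-0.30, adjusted p = 0.102, edgeR), and the sign turned after the length and GC correction (0.15, adjusted p = 0.34, edgeR). For MYCN the log2 fold change was -0.36 with a standard error of 0.92 (adjusted p = 0.743, edgeR), too wide to place on 7 and 6 counts. MNT had -0.06 (standard error 0.07, adjusted p = 0.42, edgeR), but was a call in the other direction after the length and GC correction (0.23, adjusted p = 0.00528, edgeR).

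To compare levels between genes, the scaled counts were divided by the exon length of each gene (FPKM, per kilobase of all annotated exons). In control cells the order of the members by FPKM was MYC (21.55 ± 0.0168, SD, n = 2), MLX (15.45 ± 0.318), MXI1 (13.3 ± 0.425), MAX (7.58 ± 0.972), MXD3 (5.525 ± 0.308), MXD4 (4.83 ± 0.12), MNT (3.51 ± 0.0135), MXD1 (3.4 ± 0.114), MYCL (2.16 ± 0.253) and MYCN (0.756 ± 0.0276). No neighbours in that order overlapped. The order was the same with the length of the longest transcript of each gene.
In ZM11-kd1, MXI1 (16.5 FPKM) and MLX (16.5 FPKM) came first and overlapped, MAX came next at 12.3 FPKM, and MYC followed MNT and MXD1 at 2.98 FPKM, overlapping MXD4 (2.94). In ZM11-kd2, MXI1 (21.4 FPKM) and MLX (21.3 FPKM) again led and overlapped, MAX followed at 14.6 FPKM and MYC at 8.975 FPKM. MYCL and MYCN were last in each group. With the longest transcript as the length, MXD1 and MXD3 took other places in ZM11-kd1, and MXD1 and MNT did in ZM11-kd2.

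Summed by role, the MYC family stood at 24.7 and 24.25 FPKM in the control libraries, 3.55 and 3.43 FPKM in ZM11-kd1, and 9.35 and 9.06 FPKM in ZM11-kd2. The 5 antagonists together stood at 30.6 and 30.4 FPKM in control, 29.9 and 30.0 FPKM in ZM11-kd1, and 36.8 and 37.7 FPKM in ZM11-kd2. The family was therefore lower in all 4 knockdown libraries, while the antagonist sum was nearly level in ZM11-kd1 and higher in ZM11-kd2 on this scale. The ratio of family to antagonist RNA, which does not depend on library scaling, was 0.806 and 0.797 in control, 0.119 and 0.115 in ZM11-kd1, and 0.254 and 0.241 in ZM11-kd2. With the longest transcript as the length, the same ratio was 0.758 and 0.75, then 0.114 and 0.109, then 0.253 and 0.24.
Against MAX, the family had 3.58 and 2.93 times its FPKM in control, 0.296 and 0.271 times in ZM11-kd1, and 0.615 and 0.65 times in ZM11-kd2. MAX RNA was thus below that of the family in control and above it in each knockdown library. The antagonists had 4.44 and 3.68 times the FPKM of MAX in control and 2.37 to 2.7 times in the knockdowns. These ratios compare RNA, and protein was not measured in these libraries.
The make-up of the antagonist sum also changed. MXI1 held 44.3% and 42.6% of it in control, 55.8% and 54.4% in ZM11-kd1, and 58.6% and 56.5% in ZM11-kd2. MXD3 held 17.3% and 18.9% in control and between 4.92% and 10.4% in the knockdown libraries. Within the family, MYC held 87.4% and 88.8% of the FPKM in control, 82.0% and 88.7% in ZM11-kd1, and 97.0% and 98.0% in ZM11-kd2. Only in ZM11-kd2 did both libraries lie outside the control range for that share.

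**Figure D4:**
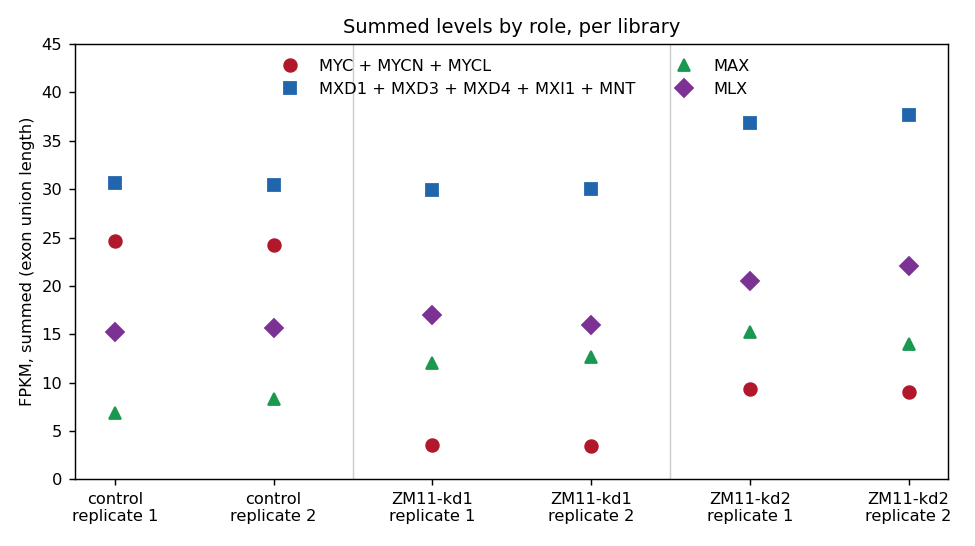
Summed FPKM (exon union length, linear axis from 0) of the MYC family, the 5 antagonists, MAX and MLX in each of the 6 libraries. The MYC family lies above MAX and MLX in both control libraries, at 24.7 and 24.25 FPKM, and below both in all knockdown libraries, while the antagonist sum stays between 29.9 and 37.7 FPKM.

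Other partners of MAX and MLX were next. Of the 4 genes listed, 1 was higher and 2 were lower in ZM11-kd1, beside 38.2% and 39.8% of all genes. In ZM11-kd2, 0 were higher and 3 lower, beside 36.5% and 36.9%. With library totals alone it was 0 and 4 in ZM11-kd1, and 0 and 3 in ZM11-kd2. MGA, a MAX partner that carries MAX into a Polycomb repressor complex, had 2780 and 2867 counts in control, 1141 and 1055 in ZM11-kd1, and 2103 and 2100 in ZM11-kd2. Its log2 fold changes were -1.41 in ZM11-kd1 (adjusted p = 4.64e-11, edgeR) and -0.61 in ZM11-kd2 (adjusted p = 3.79e-07, edgeR), and the length and GC correction brought them to -0.43 (adjusted p = 4.47e-06, edgeR) and -0.03 (adjusted p = 0.611, edgeR).
MLXIPL, the glucose-responsive partner of MLX, had 509 and 550 counts in control, 460 and 430 in ZM11-kd1, and 91 and 105 in ZM11-kd2. Only the ZM11-kd2 libraries were far from the rest. Its log2 fold change was -2.62 in ZM11-kd2 (adjusted p = 2.91e-10, edgeR) and -0.30 in ZM11-kd1 (adjusted p = 0.0244, edgeR). The ZM11-kd1 call was lost without either control library or without ZM11-kd1 replicate 1 (adjusted p up to 0.146, edgeR), and with DESeq2 (adjusted p = 0.0812). Between the knockdowns it differed by a log2 fold change of -2.32, lower in ZM11-kd2 (adjusted p = 1.77e-09, edgeR).
MLXIP, the other glucose sensor, had log2 fold changes of -0.12 in ZM11-kd1 (adjusted p = 0.0876, edgeR) and -0.48 in ZM11-kd2 (adjusted p = 9.35e-06, edgeR). The former turned to 0.15 after the length and GC correction (adjusted p = 0.0318, edgeR) and was a call of -0.48 with library totals alone (adjusted p = 6.3e-06, edgeR). ZBTB17, also known as MIZ1, through which MYC represses genes, had log2 fold changes of 0.18 (adjusted p = 0.0392, edgeR) and 0.13 (adjusted p = 0.131, edgeR). Both signs turned with library totals alone, to -0.18 and -0.04, and the ZM11-kd1 value turned to -0.43 after the length and GC correction (adjusted p = 4.36e-05, edgeR). The ZM11-kd1 call of ZBTB17 was also lost with the replicate block (adjusted p = 0.0606, edgeR), without any 1 of the control or ZM11-kd1 libraries (adjusted p of 0.0941 to 0.166, edgeR), with either other filter (0.0854 and 0.103, edgeR) and with DESeq2 (0.0956).

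Members of the complexes that the network recruits changed in both directions. The counts of this and the next lists stand beside 38.2% of all genes called higher and 39.8% lower in ZM11-kd1, and 36.5% and 36.9% in ZM11-kd2. The median log2 fold change of all genes was -0.03 in each comparison with control. In the MGA-MAX repressor complex (PRC1.6), 6 of 11 genes were higher and 5 lower in ZM11-kd1, and 5 higher and 3 lower in ZM11-kd2, with medians of 0.21 and 0.01. Library totals alone gave 4 higher and 5 lower, and 3 higher and 4 lower. L3MBTL2, a chromatin-binding subunit, was higher by 1.13 and 0.77 in ZM11-kd1 and ZM11-kd2. E2F6, a repressor of the E2F family, was higher by 0.21 and 1.03, although 0.21 became -0.15 with library totals alone and lost its call without any 1 of the control or ZM11-kd1 libraries (adjusted p of 0.0547 to 0.0814, edgeR). Its partner TFDP1 was lower, at -0.66 and -0.43.
In the SIN3 corepressor, through which the antagonists act, 8 of 17 genes were higher and 6 lower in ZM11-kd1, and 9 higher and 3 lower in ZM11-kd2, with medians of 0.20 in both. With library totals alone these became 4 higher and 8 lower, and 5 higher and 5 lower. SAP18 (1.995 and 1.29) and SAP30 (1.07 and 1.33) rose, with SAP30 at 0.40 in ZM11-kd1 after the length and GC correction. The scaffold SIN3A (-1.32 and -0.27) and SUDS3 (-1.68 and -0.65) fell, with SIN3A in ZM11-kd2 at -0.05 after the length and GC correction (adjusted p = 0.412, edgeR).
Of 16 MYC coactivators, 5 were higher and 9 lower in ZM11-kd1, and 5 higher and 8 lower in ZM11-kd2, with medians of -0.31 and -0.26, and library totals alone made it 3 higher and 12 lower, and 4 higher and 10 lower. TRRAP (-1.74 and -1.37) and EP400 (-1.84 and -1.45), large subunits of histone acetyltransferase complexes, fell, with TRRAP at -1.03 in ZM11-kd1 after the same correction. The elongation factors CDK9 (1.53 and 0.57) and SUPT5H (0.75 and 1.43) rose.

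The enzymes that control MYC protein, and the factors that act on its gene and mRNA, were counted in the same way. Of 20 genes of MYC protein turnover, 9 were higher and 9 lower in ZM11-kd1, and 10 higher and 8 lower in ZM11-kd2, with medians of 0.003 and 0.16. Library totals alone gave 7 and 11, then 9 and 9. The 4 with the largest mean change over both knockdowns were all lower. They were CIP2A (-5.36 and -3.71), which shields MYC from phosphatase PP2A, the mitotic kinases PLK1 (-4.56 and -3.29) and AURKA (-4.46 and -2.94), and the deubiquitinase USP37 (-3.17 and -1.43). SKP2 (-2.33 and -1.92), also of this list, changed more than USP37 in ZM11-kd2. In ZM11-kd1, USP37 was at -2.43 after the length and GC correction and CIP2A at -6.02 without ZM11-kd1 replicate 1. CIP2A had 783 and 856 counts in control, 29 and 12 in ZM11-kd1, and 73 and 69 in ZM11-kd2.
Of 14 regulators of the MYC gene and mRNA, 3 were higher and 7 lower in ZM11-kd1, and 6 higher and 6 lower in ZM11-kd2. By library totals alone they were 1 higher and 11 lower, and 5 higher and 6 lower. IGF2BP3 (-4.09 and -1.75) and IGF2BP1 (-1.29 and -1.01), proteins that bind and stabilise MYC mRNA, fell, with IGF2BP1 at -0.66 in ZM11-kd1 after the length and GC correction. CNBP, which binds a nuclease-sensitive element of the MYC promoter, rose by 0.90 and 1.55. PVT1, a long noncoding RNA transcribed next to MYC, had 728 and 779 counts in control, 249 and 243 in ZM11-kd1, and 623 and 590 in ZM11-kd2. Its log2 fold change was -1.66 in ZM11-kd1 (adjusted p = 1.31e-09, edgeR) and -0.50 in ZM11-kd2 (adjusted p = 0.000212, edgeR), so that PVT1 and MYC were both lowest in ZM11-kd1.

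Classical targets of MYC did not move as a block. Of 36 genes known to be activated by MYC, 12 were higher and 18 lower in ZM11-kd1, and 15 higher and 15 lower in ZM11-kd2, with medians of -0.14 and -0.09. Library totals alone gave 5 higher and 26 lower in ZM11-kd1, and 13 higher and 19 lower in ZM11-kd2. TERT passed the filter on low counts through the control libraries alone, and without it 12 were higher and 17 lower, then 15 higher and 14 lower. CCND2 had 8 and 7 counts in control, 6 and 14 in ZM11-kd1, and 43 and 50 in ZM11-kd2. Its libraries over the filter were control replicate 1, ZM11-kd1 replicate 2 and both of ZM11-kd2. TERT, the catalytic subunit of telomerase, had 187 and 189 counts in control, 0 and 0 in ZM11-kd1, and 0 and 5 in ZM11-kd2. Its counts were at least 64.5-fold lower in ZM11-kd1, with 3 counts per library as the floor. They were 85.6-fold lower in ZM11-kd2 (95% interval 36.4 to 265, counting error only and no test of the fall), where all 5 counts lay in 1 library. TERT was the lowest gene of the list, so its bound leaves the medians as they are. The translation factor EIF4A1 (-2.89 and -1.98), the transaminase BCAT1 (-2.92 and -0.81) and the cell cycle phosphatase CDC25A (-2.18 and -1.39) fell. Among others, named after their values were seen, SRM (1.25 and 1.06) and EIF4E (0.89 and 1.07) rose in both knockdowns. ODC1 was called in opposite directions (-1.74 and 0.44). In ZM11-kd1, BCAT1 was at -2.08 after the length and GC correction. EIF4A1 overlaps an annotated readthrough gene, so its count is uncertain.
Of 14 genes known to be repressed by MYC, 9 were higher and 0 lower in ZM11-kd1, with a median of 0.68, and 8 were higher and 3 lower in ZM11-kd2, with a median of 0.54. Of all genes, 38.2% were higher and 39.8% lower in ZM11-kd1. Library totals alone gave 8 higher and 2 lower in ZM11-kd1, and 8 and 3 again in ZM11-kd2. PDGFRB, which was not called, passed the filter through the control libraries alone, and without it the medians were 0.86 and 0.55. GADD45B (3.11 and 1.14) and GADD45A (2.13 and 1.32), which respond to stress and DNA damage, rose, with GADD45B at 2.41 in ZM11-kd1 after the length and GC correction. So did the inhibitors of cyclin-dependent kinases CDKN1A (0.86 and 2.42) and CDKN2B (1.27 and 1.44). CLU, a secreted chaperone, was higher in ZM11-kd1 (0.51) and lower in ZM11-kd2 (-0.44). CDKN1C and NDRG2 were the others that fell in ZM11-kd2, at -1.60 and -1.53, named after their values were seen. CDKN1C had 44 and 52 counts in control but 30 and 6 in ZM11-kd2, and was at -0.89 and no longer called without ZM11-kd2 replicate 2 (adjusted p = 0.0543, edgeR), and at -3.13 without ZM11-kd2 replicate 1.
Of 7 genes known as targets of MLX with its glucose sensors, 4 were higher and 3 lower in ZM11-kd1, and 5 higher and 2 lower in ZM11-kd2. With library totals alone the former were 3 and 3. TXNIP (1.47 and 0.69) and ARRDC4 (1.57 and 1.18), arrestins that limit glucose uptake, rose, and PFKFB3 (-1.61 and -0.79), which drives glycolysis, fell. The others named went in opposite directions in the knockdowns. Hexokinase HK2 was at -1.10 and 1.09, with 3215 and 3271 counts in control, 1671 and 1450 in ZM11-kd1, and 7638 and 8034 in ZM11-kd2. KLF11 was at -1.10 and 0.40, and G6PC3 at 0.34 and -0.67, where 0.34 became -0.02 with library totals alone and 0.029 after the length and GC correction, neither a call.

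**Figure D5:**
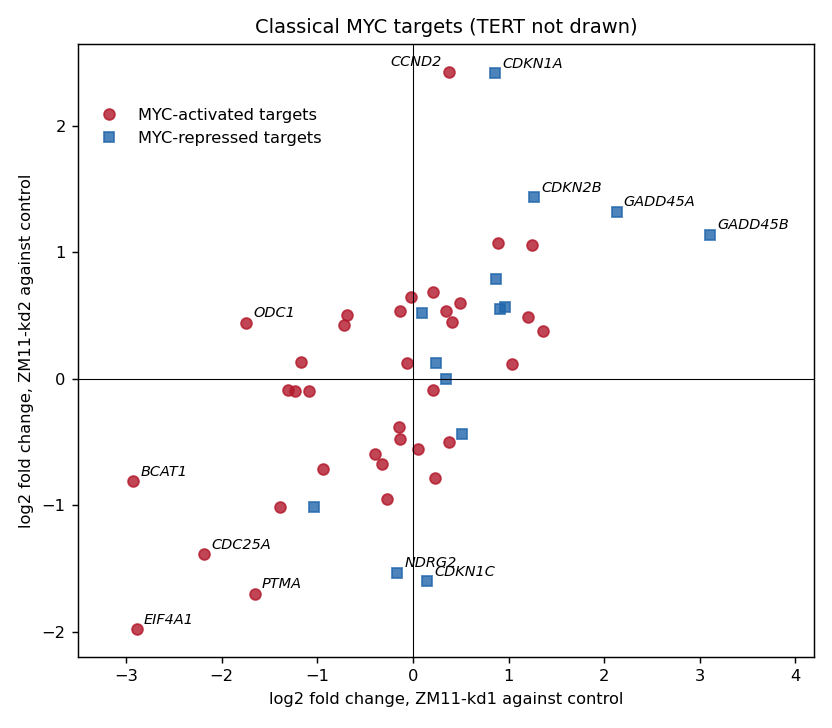
Log2 fold changes in ZM11-kd1 (x axis) and ZM11-kd2 (y axis) against the shared control libraries, for genes known to be activated (circles) or repressed (squares) by MYC, with the outermost genes named and TERT left out. Activated targets lie on both sides of 0, with EIF4A1 at -2.89 and -1.98, while CCND2, at the top, rests on few counts outside ZM11-kd2 and was not called in ZM11-kd1 (adjusted p = 0.594, edgeR), and no repressed target called in ZM11-kd1 lies left of 0 with TMM, though 2 were called lower with library totals alone.

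Genes whose pattern over the 6 libraries was nearest to that of a member were named by the Euclidean distance between centred log2(CPM + 0.5) values, over 10069 genes. To MYC the nearest were CAPN5 at a distance of 0.136, GOLIM4 at 0.152, LINC01029 at 0.183, SMC1A at 0.251 and FADS1 at 0.257. Each fell further in ZM11-kd1 than in ZM11-kd2, CAPN5 for example by log2 fold changes of -3.05 and -1.38. To MYCN, the other member with the largest mean change, they were IGSF9 at 0.23, the pair CHML and OPN3 at 0.233 each, IL17RB at 0.302 and EVC at 0.305. CHML lies within OPN3, so their reads may be shared. The added 0.5 CPM compresses the change of MYCN, so its neighbours had smaller fold changes than MYCN itself, from -2.32 to -2.01 in ZM11-kd1. Many genes can share a pattern of 3 group levels, and nothing about function follows from these distances.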

How the data were processed

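RNA was measured in 6 libraries of 22Rv1 cells, grouped by their labels. The authors deposited raw read counts, 1 value for each gene symbol and library, with no normalization. Reads were trimmed with AdapterRemoval and aligned with STAR, and the submitters' processing notes name FastQC 0.11.9, STAR 2.7.9a, HTSeq 0.13.5 and hg38. How strand and shared exons were treated is not given in the sources used here.

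Genes were tested with the quasi-likelihood test of edgeR 4.0.16 in R 4.3.3, after TMM scaling and filterByExpr, in one fit of the 3 groups with 3 residual degrees of freedom. Benjamini-Hochberg adjustment covered all genes tested. Of the 35322 symbols, 32852 matched GENCODE 44, which gave lengths and positions. Standard errors are derived from the F statistic and the size of the log2 fold change. Total counts set the precision of low genes. The functions were tested on simulated data.

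The alternatives were DESeq2 size factors, library totals alone, a lowess correction for gene length and GC content (span of 0.3), the Wald test of DESeq2 1.42.0, a minimum of 10 counts in every library or no filter, a fold change of 1.5 or more, a replicate block, only the groups compared, and leaving out each of the 6 libraries. The members and gene lists were chosen with earlier results of these data known. Named genes are the members, the 4 other partners, and from each pathway list up to 4 genes with the largest mean change among those called in both knockdowns. Genes called in opposite directions were added for MYC-repressed targets and MLX targets. Patterns were compared with genes of at least 3 log2 CPM on average.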

Additional observations from a re-analysis of the deposited data

Results flagged for a closer look

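For 8 members the changes against control differed between the knockdowns, by the direct test of ZM11-kd2 against ZM11-kd1 in edgeR. The difference, as a log2 fold change, was 1.59 for MYC (adjusted p = 6.28e-11), 0.67 for MXD1 (adjusted p = 3.82e-06), 0.55 for MXD4 (adjusted p = 2.31e-05), 0.38 for MXI1 (adjusted p = 2.18e-05), 0.37 for MLX (adjusted p = 9.13e-05) and 0.24 for MAX (adjusted p = 0.013). It was -1.26 for MYCL (adjusted p = 0.00369) and -0.46 for MXD3 (adjusted p = 0.00655). In this comparison 68.8% of all genes passed the same threshold. The call of MYCL was lost without ZM11-kd1 replicate 1 (-0.65, adjusted p = 0.121, edgeR), that of MAX without the same library (0.20, adjusted p = 0.107, edgeR), and that of MXD3 without ZM11-kd1 replicate 2 (-0.30, adjusted p = 0.102, edgeR). MYC and MXD1 kept direction and call under all alternatives run. MXD4, MXI1 and MLX did so too, except that none of these 3 reached a fold change of 1.5.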

How the results depend on the processing

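MYC, MYCL, MAX and MXD3 kept their direction and call against control in both knockdowns under the alternatives run. MYCN has no value with at least 10 counts in every library. The log2 fold change of MYC ranged from -3.21 to -2.75 in ZM11-kd1 and from -1.43 to -1.24 in ZM11-kd2. In ZM11-kd1, library totals alone turned the sign of MXI1 (-0.040), MNT (-0.056), MLX (-0.26), ZBTB17 (-0.18), E2F6 (-0.15) and G6PC3 (-0.018). There the length and GC correction turned MXD1 (0.45), MLX (-0.13), MLXIP (0.15) and ZBTB17 (-0.43), and with a library left out MXD1 ranged from -0.061 to 0.029, above 0 without control replicate 2 (0.015) or ZM11-kd1 replicate 2. In ZM11-kd2, library totals alone turned ZBTB17 (-0.043). Between the knockdowns, the correction turned MYCN (0.015), MXD3 (0.15) and MNT (0.23, a call), library totals alone turned MNT (0.12), and MYCN ranged from -1.20 to 1.43 with a library left out, above 0 without ZM11-kd1 replicate 2. Library totals shift all genes by construction, and the cause of the other changes was not tested.

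The number of members called higher in ZM11-kd1 was 1 with library totals alone and 1 with a fold change of at least 1.5. The latter setting gave 3 higher in ZM11-kd2, and 3 called, 2 higher and 1 lower between the knockdowns. Members called lower between the knockdowns were 1 with library totals alone and 1 with the correction, and between 1 and 2 with a library left out. Of the counts over gene lists under the alternatives, 68 moved by over 1.5 times and 742 did not. Labels give no pairing for the replicate numbers, and correlations of replicate differences were 0.0141, -0.0497 and -0.111. With the replicate block, 8, 9 and 8 members were called in the 3 comparisons, as without it, and ZBTB17 was no longer called in ZM11-kd1 (adjusted p = 0.0606, edgeR). Depth limits MYCN, with 7 and 6 knockdown counts.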
